A study of Homo sapiens with 74 samples.

Results

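Loss of DOT1L in K562 was set against the difference between K562 and HEL, to ask which genes that separate these lines were nearer to or farther from the HEL level in the knockout. The comparison rests on 5 RNA-seq libraries, the 3 of DOT1L knockout K562 and the 2 of control HEL, out of 74 samples in the series, and it was anchored by the 2 distinct libraries of control K562. A further distance was also taken for the 3 libraries of ENL knockout K562. Both lines are established human leukaemia lines. K562 comes from chronic myeloid leukaemia in blast crisis and carries the BCR-ABL fusion, and HEL comes from erythroleukaemia and carries an activating JAK2 mutation. The DOT1L knockout K562 libraries are labelled DOT1L-/- and the control libraries of both lines are labelled control, with no vector, guide or treatment given. HEL was grown in RPMI-1640 medium with serum and β-mercaptoethanol and K562 in DMEM with serum and without it, both with antibiotics and added L-glutamine. The labels do not say whether the knockout is 1 clone, nor how many cultures the libraries came from, so p-values measure the spread between these libraries, which may be technical. HEL was deposited as reads per gene and K562 as fragments per gene, in separate tables. The cell line therefore cannot be told apart from the counting unit, the medium or the sequencing.

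DOT1L is the methyltransferase that places methyl groups on lysine 79 of histone H3, a mark found over the bodies of transcribed genes. It works in a complex with AF9, ENL and AF10, the products of MLLT3, MLLT1 and MLLT10, and is best known in leukaemia for sustaining HOXA and MEIS1 expression in cells with MLL rearrangements. Erythroid and megakaryocytic cells share a progenitor and the factors GATA1 and TAL1, KLF1 favours the erythroid side and FLI1 the megakaryocytic side, and both K562 and HEL hold traits of each lineage.

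Total counts were 12640870 and 12811688 reads in HEL and 20403057 to 29236703 fragments in the 5 K562 libraries. K562 control columns 2 and 3 held equal counts throughout and entered once. Levels are given in CPM, counts scaled by library size and edgeR's TMM factors, and 15264 of 28131 genes had enough counts to be tested. DOT1L was examined first, because its level checks the labels. The gene (chromosome 19, 2164149 to 2232578, plus strand, GRCh38) was read at 267.8 and 252.3 CPM in the K562 controls, at 183.7, 173.5 and 181.8 CPM in the knockout and at 101.8 and 90.9 CPM in HEL. All knockout libraries lay below both controls, and the transcript was still counted in each of them. Knockout and control libraries did not overlap at 65.4% of the genes tested, so an absence of overlap alone is common here. The knockout minus control difference was -0.53 log2 (SE 0.06, edgeR, adjusted p = 2.0e-07), so a count over the whole gene does not by itself show the lesion. DOT1L therefore lay nearer to its HEL level in the knockout. The transcript of MLLT3 was read at 601.8 and 621.1 CPM in HEL and at no more than 2 fragments in any of the 5 K562 libraries, and was not called in the knockout (adjusted p = 0.39). MLLT1, the gene of ENL, was also not called (log2 difference 0.02, adjusted p = 0.74).

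The lines themselves differed widely. Between HEL and control K562, 8707 genes were called separating, with an adjusted p under 0.05 and a log2 difference of at least 1, which is 57.0% of the genes tested. HEL was higher for 4049 of them (26.5% of the genes tested) and lower for 4658 (30.5%). The knockout differed from control at 8016 genes (52.5%), of which 4165 rose (27.3%) and 3851 fell (25.2%). Among the separating genes 2794 moved toward HEL and 1730 moved away, so that toward made up 61.8% of the 4524 that moved, and 4183 were not called in the knockout. Of all separating genes 32.1% moved toward HEL and 19.9% away, which are the shares to read list counts against. The toward genes comprised 1344 higher in HEL that rose and 1450 lower in HEL that fell, and the away genes comprised 1119 lower in HEL that rose and 611 higher in HEL that fell. Both contrasts use the same control libraries, so a deviation of the controls enters both. With control 1 used for the difference between lines and control 2 for the knockout, 60.7% moved toward, and with the controls exchanged 62.9% did.

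The excess of toward over away depended on which K562 group the genes were chosen against. Chosen by HEL against either K562 group, in a comparison added after the data were seen, 2786 genes moved toward and 2771 away, or 50.1% toward. Chosen by HEL against the knockout, at 8967 genes (58.7% of those tested), 1969 moved toward and 2809 away, or 41.2% toward. A distance that needs no chosen genes was taken as the mean absolute log2 CPM difference of each library from the HEL mean. Over all genes tested the controls lay at 1.91 and 1.89 and the knockout libraries at 1.91, 1.88 and 1.90, and the groups overlapped. The knockout mean was lower by a difference of -0.0022 (exact two-sided permutation test, p = 1, where the smallest possible p is 0.1). Over separating genes the controls lay at 2.98 and 2.95 and the knockout libraries at 2.81, 2.77 and 2.79. Over the other 6557 genes the controls lay at 0.485 and 0.476 and the knockout libraries at 0.708, 0.687 and 0.708. The knockout libraries were thus nearer to HEL where the lines had been selected to differ and farther where they had been selected not to. For 9610 genes of at least 10 CPM, as the mean over the 3 groups with HEL among them, the knockout was nearer without overlap. The difference was -0.0485, with the smallest p the design allows (exact permutation test, p = 0.1). Smaller differences of the same sign came with a prior count of 0.5 (-0.0131, exact permutation p = 0.4) and at least 1 CPM in 2 libraries (-0.0167, p = 0.4). The same sign also came with the exonic length trend removed (-0.0066, p = 0.7) and as 1 minus Spearman rho (-0.0053, p = 0.3). With other scalings or no filter the sign changed, as given below. The 3 libraries of ENL knockout K562 gave a mean distance of 1.90 on the same scale. The 3 DOT1L knockout libraries gave 1.89 (exact permutation test between these knockouts, p = 0.7).

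**Figure D1:**
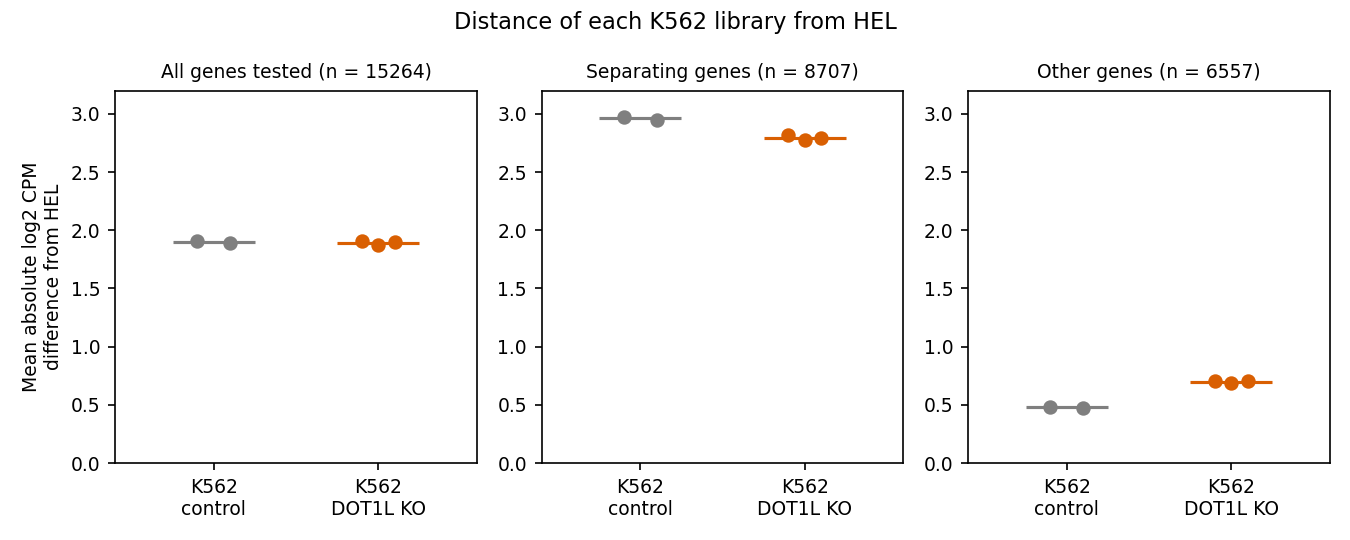
Mean absolute log2 CPM difference from the HEL mean, on the vertical axis, for each K562 control and DOT1L knockout library, with 1 point per library and a line at the group mean. Over all genes the points overlap, over separating genes the 3 knockout libraries lie at 2.81, 2.77 and 2.79 below the controls, and over the other genes they lie above them.

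How far the toward genes went was read from the share of the gap between control K562 and HEL that the knockout covered on the log2 scale. The median over all separating genes was 3.42%, and it was 2.00, 4.51 and 3.13% in the 3 knockout libraries taken singly. Among the toward genes, which their direction selects, the median was 29.1%, and 749 of them (26.8%) covered more than 50%. Of the toward genes, 2456 (87.9%) stopped partway and still differed from HEL in the same sense, 252 (9.02%) were not called against HEL, and 86 (3.08%) were called beyond it. Over all genes tested, HEL and the knockout were called different at 88.0%. The direction varied with the level of the gene. Of genes higher in HEL 33.2% rose and 15.1% fell, of genes lower in HEL 24.0% rose and 31.1% fell, and of genes that did not separate the lines 25.96% rose and 27.3% fell. Under 1 CPM 22.2% of genes higher in HEL rose and 1.62% fell, whereas 52.9% of genes not separating the lines rose at that level. Level was the mean over the 3 groups. Under 1 CPM a gene higher in HEL therefore had few control counts, and its fall could hardly be called. From 100 CPM upward 27.9% of genes higher in HEL rose and 33.3% fell, and 18.0% of genes lower in HEL rose and 41.5% fell.

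**Figure D2:**
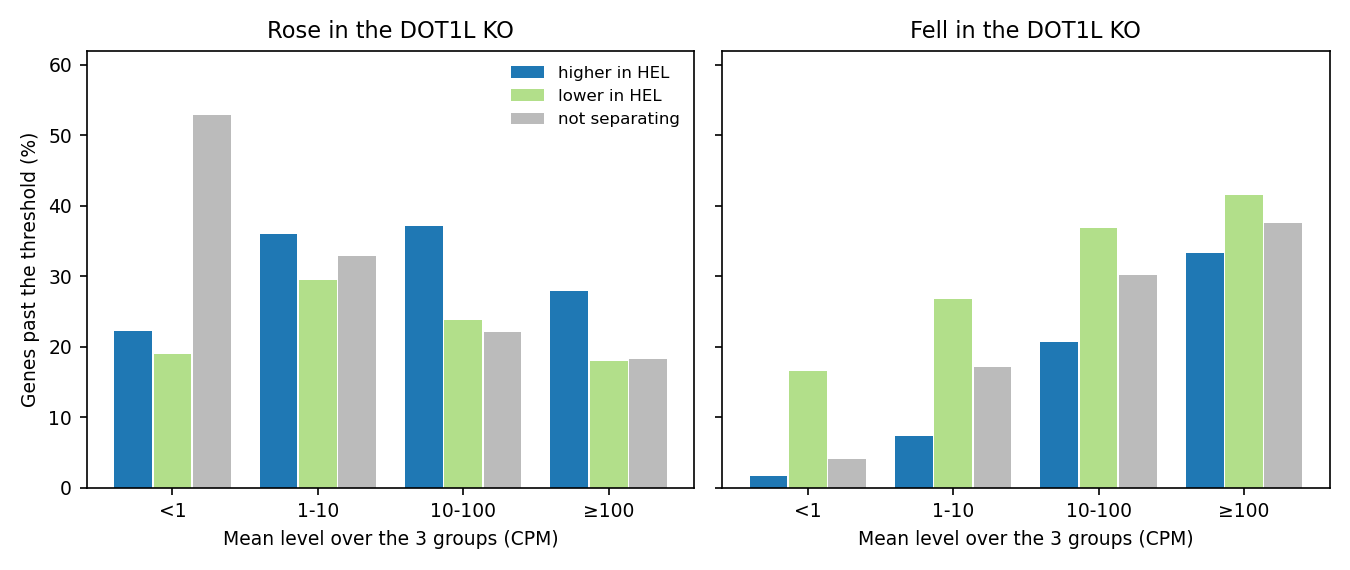
Percentage of genes that rose (left) or fell (right) past an adjusted p of 0.05 in the DOT1L knockout, by mean level over the 3 groups in CPM and by whether the gene was higher in HEL, lower in HEL or not separating. At each level a smaller share of the genes higher in HEL fell than of those lower in HEL, with 1.62% against 16.6% under 1 CPM and 33.3% against 41.5% from 100 CPM upward. Under 1 CPM the genes higher in HEL had few control counts, so the shares that fell there are not comparable.

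Before the lineage genes are taken in turn, the promoters of 4 genes are shown because these genes mark the ends of the range: ALAS2 and ICAM4 were at or near their HEL level in the knockout, and GP9 and FCER1A, high in HEL, were not called in it. Each run is the 250 bases before the start in the RefSeq promoter table on GRCh38.p14, read 5′ to 3′ on the strand of the gene. For FCER1A this start lies well inside the gene span of the deposited tables, and for ALAS2 and GP9 the run overlaps the 5′ end of that span, so other starts of these genes are not shown. Capitals mark AGATAA or TGATAA, which GATA factors can bind, and GGGCGG, which Sp1 and related factors can bind, on either strand.
ALAS2, chrX:55030978-55031227, minus strand: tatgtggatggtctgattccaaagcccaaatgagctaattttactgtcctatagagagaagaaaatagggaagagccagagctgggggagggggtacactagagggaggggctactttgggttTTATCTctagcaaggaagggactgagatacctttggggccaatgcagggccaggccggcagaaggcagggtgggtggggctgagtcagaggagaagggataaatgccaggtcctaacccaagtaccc
ICAM4, chr19:10286705-10286954, plus strand: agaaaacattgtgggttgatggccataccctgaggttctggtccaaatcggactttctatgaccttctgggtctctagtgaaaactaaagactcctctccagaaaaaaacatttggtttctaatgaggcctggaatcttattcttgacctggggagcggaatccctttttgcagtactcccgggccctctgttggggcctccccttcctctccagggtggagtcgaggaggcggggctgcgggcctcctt
GP9, chr3:129060529-129060778, plus strand: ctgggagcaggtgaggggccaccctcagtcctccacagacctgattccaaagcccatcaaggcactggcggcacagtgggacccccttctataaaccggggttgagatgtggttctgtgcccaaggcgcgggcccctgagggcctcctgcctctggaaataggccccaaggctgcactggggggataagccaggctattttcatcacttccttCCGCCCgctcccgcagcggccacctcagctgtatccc
FCER1A, chr1:159302086-159302335, plus strand: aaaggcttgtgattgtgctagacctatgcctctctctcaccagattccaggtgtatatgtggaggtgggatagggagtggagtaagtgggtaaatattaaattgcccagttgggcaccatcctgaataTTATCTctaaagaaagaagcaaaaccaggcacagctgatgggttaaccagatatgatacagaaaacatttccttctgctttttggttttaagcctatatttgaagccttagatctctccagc
ALAS2 and FCER1A each held 1 AGATAA, read here as its reverse complement, GP9 held 1 GGGCGG and ICAM4 held none of the 3 motifs. Over 35116 promoters of the same length 14.6% held AGATAA or TGATAA and 42.6% held GGGCGG. The number of CG dinucleotides was 1, 6, 8 and 0 in ALAS2, ICAM4, GP9 and FCER1A, beside a median of 11 over all promoters.

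Most genes of the red cell membrane rose. Of 24 tested members 20 rose and 2 fell in the knockout, where 27.3% and 25.2% of all genes tested did. Of the 13 that were higher in HEL 12 rose, where 33.2% of all genes higher in HEL did. The median knockout difference of the list was 1.00 log2, against 0.01 over all genes tested. In these bulk libraries more cells of a type and more RNA per cell cannot be told apart. RHCE, which encodes the Rh blood group C and E antigens (chromosome 1, 25362249 to 25420914, minus strand), went from 4.57 and 5.83 CPM to 24.6, 24.9 and 23.0 CPM, below the 146.7 and 148.3 CPM of HEL. The 3 groups did not overlap and the knockout stood between the lines (log2 difference 2.22, SE 0.10, edgeR, adjusted p = 1.7e-12). RHD, a close relative of RHCE, rose by 1.78 log2 and GYPB, a glycophorin of the red cell surface, by 2.46, with the reservation that reads of near-identical copies can be split between genes. EPB42, a membrane skeleton protein, rose by 1.34 log2 and still fell short of HEL by 5.29.

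ICAM4, the Landsteiner-Wiener blood group protein, ended at its HEL level. It was read at 40.1 and 38.6 CPM in the controls, at 110.1, 102.0 and 90.9 CPM in the knockout and at 100.1 and 101.5 CPM in HEL, so that knockout and HEL overlapped (HEL against knockout, adjusted p = 0.96). DMTN, the actin bundling protein dematin, covered 86.7% of its gap. Other members went away from HEL. SLC4A1, which encodes the anion exchanger band 3 (chromosome 17, 44248390 to 44268134, minus strand), was read at 33.0 and 32.5 CPM in the controls, at 204.6, 200.5 and 204.8 CPM in the knockout and at 0.501 and 0.578 CPM in HEL. Its rise of 2.63 log2 (SE 0.06, edgeR, adjusted p = 2.2e-16) widened the difference from HEL. TMOD1, a capping protein of actin filaments, rose by 1.08 log2 and was lower in HEL. AQP1, a water channel that did not separate the lines, rose from 19.99 and 19.6 CPM to 110.7, 108.0 and 103.6 CPM, above the 21.0 and 20.6 CPM of HEL. CD36 was read at 389.5 and 384.0 CPM in HEL and fell in the knockout, from 1.66 and 1.63 to between 0.831 and 1.35 CPM (adjusted p = 0.048).

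Haem synthesis genes rose in 8 of 13 cases, where 27.3% of all genes tested rose, and none fell. Their median knockout difference was 0.51 log2. ALAS2, the erythroid enzyme of the first step (chromosome X, 55009055 to 55031064, minus strand), was read at 52.1 and 58.0 CPM in the controls, at 342.7, 355.4 and 352.4 CPM in the knockout and at 321.6 and 317.8 CPM in HEL. Every knockout library lay just above both HEL libraries, and HEL minus knockout was -0.13 log2 (adjusted p = 0.028), against a rise of 2.67 over control (SE 0.06, edgeR, adjusted p = 2.2e-16). With the trend against exonic length removed, the rise was 2.60 and HEL minus control 2.87, so the order of knockout and HEL turned. SLC25A37, the mitochondrial iron importer mitoferrin, rose by 1.15 log2 and remained below HEL by 0.59. CPOX, a later enzyme, was read at 749.2 and 717.1 CPM in HEL and showed a log2 difference of -0.02 in the knockout (adjusted p = 0.87). PPOX, which acts after CPOX and did not separate the lines, rose to 83.3, 73.6 and 78.3 CPM from 21.5 and 20.3 CPM, beside 27.6 and 25.7 CPM in HEL.

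**Figure D3:**
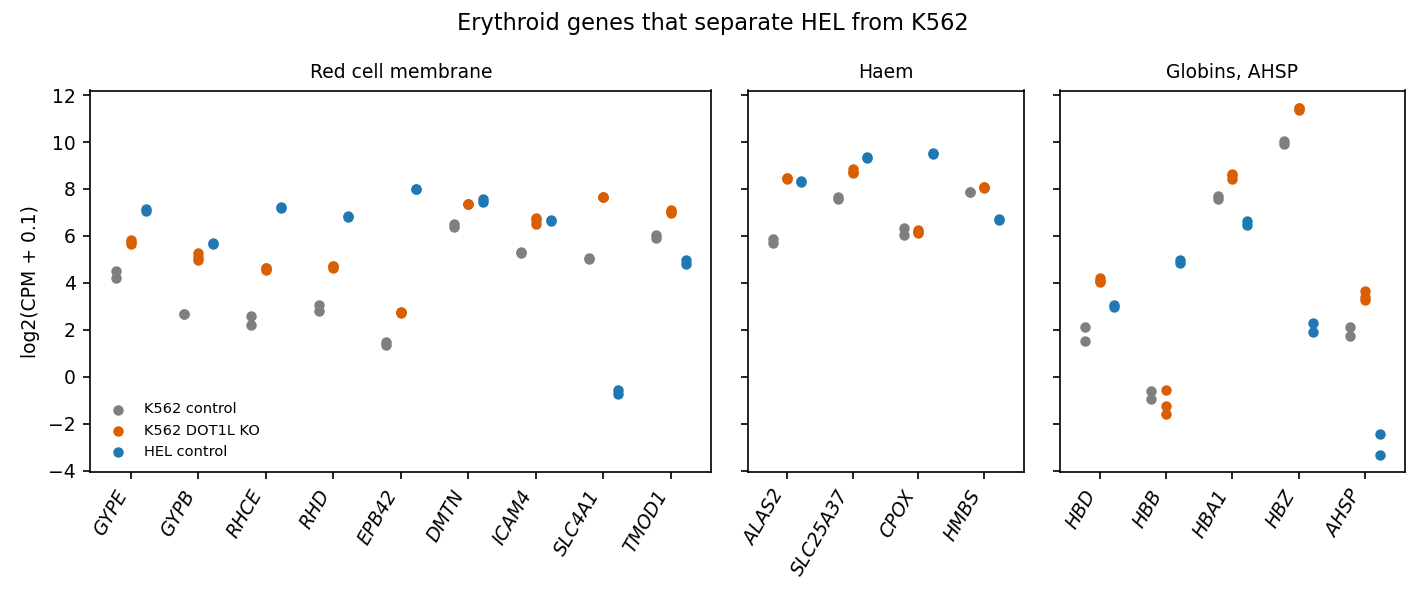
Level of erythroid genes that separate HEL from K562, as log2(CPM + 0.1) on the vertical axis, with 1 point per library in control K562, DOT1L knockout K562 and HEL. GYPE, GYPB, RHCE, RHD and EPB42 lie between the lines in the knockout, ALAS2 and ICAM4 lie at the HEL level, and SLC4A1, TMOD1, HBZ and AHSP lie on the far side of control.

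Globins rose in 7 of 9 tested cases and none fell, where 27.3% of all genes tested rose and 25.2% fell. Their position against HEL was mixed. Of 6 that separated the lines 1 moved toward HEL and 3 away, where 32.1% and 19.9% of all separating genes did. HBZ, the embryonic zeta globin (chromosome 16, 152855 to 154505, plus strand), was read at 969.0 and 1064.6 CPM in the controls, at 2666.2, 2794.3 and 2807.2 CPM in the knockout and at 4.84 and 3.63 CPM in HEL. It rose by 1.44 log2 (SE 0.06, edgeR, adjusted p = 2.3e-13), away from HEL. HBA1 and HBA2, whose near-identical copies can share reads, rose by 0.92 and 1.05 log2 and were also lower in HEL. HBB, the adult beta globin, was read at 31.5 and 28.9 CPM in HEL and at 0.233 to 0.583 CPM in the knockout, a difference from control that was not called (adjusted p = 0.46). HBD rose past HEL, from 2.82 and 4.29 to 16.6, 18.2 and 16.8 CPM against 7.85 and 8.17 CPM. AHSP, the chaperone of alpha globin, rose by 1.55 log2 and was read at no more than 1 read in HEL.

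Erythroid regulators changed in both directions. Of 18 tested members 13 rose and 4 fell, where 27.3% and 25.2% of all genes tested did. Of 9 separating members 3 moved toward HEL and 5 away, where 32.1% and 19.9% of all separating genes did. TAL1, a regulator shared by both lineages, was read at 114.7 and 117.1 CPM in the controls, at 211.5, 213.2 and 213.2 CPM in the knockout and at 562.1 and 567.0 CPM in HEL. It stood between the lines after a rise of 0.88 log2 (SE 0.05, edgeR, adjusted p = 4.0e-11). GATA1 and KLF1, which did not separate the lines by the rule, rose by 0.59 and 0.71 log2. LMO2, the bridging partner of TAL1, fell by 0.57 log2 and was higher in HEL, and ZFPM1, the GATA1 cofactor FOG1, rose by 0.87 log2 and was lower in HEL. CA1, the carbonic anhydrase of red cells, rose from 3.28 and 3.31 to 14.2, 15.4 and 15.3 CPM and stayed far below the 1394.4 and 1438.9 CPM of HEL.

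Of the 12 lists, megakaryocytic genes had the highest median of HEL over K562, and in the knockout they divided into genes that rose partway and genes without a call. Of 24 tested members 23 separated the lines, 22 of them higher in HEL. Of these 22, 11 rose toward HEL and 1 fell away from it, where 33.2% of all genes higher in HEL rose and 15.1% fell. Members at or near 0 counts in the controls could hardly be called as falling, which limits the away count. All 11 stopped partway. The median gap from HEL was 6.41 log2 in the controls and 4.45 log2 in the knockout, with groups at 0 counts set to the floor of 3 counts. These medians can fall on different members, so their difference is not the change of a typical member. With the same floor the median knockout difference of the list was 0.56 log2, against -0.0044 over all genes tested. Only groups at 0 counts in every library were set to the floor. ITGA2B, which encodes the platelet integrin subunit alpha IIb (chromosome 17, 44372181 to 44389601, minus strand), was read at 3.83 and 5.78 CPM in the controls, at 25.0, 24.2 and 24.3 CPM in the knockout and at 1365.1 and 1321.3 CPM in HEL. It rose by 2.35 log2 (SE 0.11, edgeR, adjusted p = 1.8e-12) and differed from HEL by 5.78. Its partner ITGB3 rose by 1.26 log2 and stayed 6.76 below HEL. THBS1, a secreted adhesion protein of platelets, rose from 0.277 and 0.560 to 17.7, 15.9 and 14.4 CPM, against 126.3 and 129.9 CPM. RUNX1, a regulator of the lineage, rose by 1.10 log2 and CD9, a platelet surface tetraspanin, by 3.52.

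FLI1, the transcription factor of the megakaryocytic side (chromosome 11, 128686535 to 128813267, plus strand), had 0 counts in both controls and in all 3 knockout libraries and was read at 603.3 and 595.9 CPM in HEL. HEL was at least 4307-fold higher than control, against the floor of 3 counts per library. SELP, GP1BA, PF4 and TREML1, which encode proteins of platelets and their granules, also had 0 counts in all 5 K562 libraries. GP9, a platelet glycoprotein, had 1 fragment in each of 2 knockout libraries and was read at 200.8 and 177.7 CPM in HEL. A count of 0 limits the level to 3 counts, which is 0.139 CPM on average in the controls and 0.125 CPM in the knockout and covers counting error only. PRKCQ went the other way and fell by 0.71 log2, with HEL higher than control by 2.22.

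**Figure D4:**
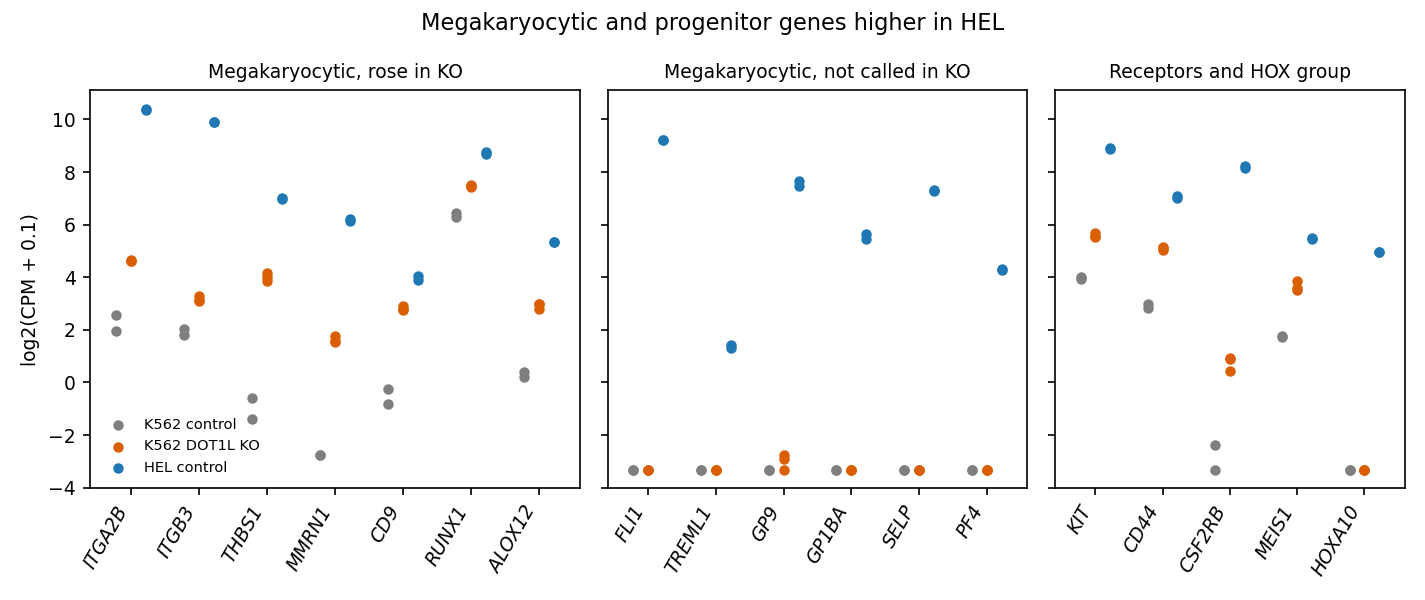
Level of megakaryocytic, receptor and HOX group genes higher in HEL, as log2(CPM + 0.1) on the vertical axis, with 1 point per library in control K562, DOT1L knockout K562 and HEL. ITGA2B, THBS1, KIT and MEIS1 lie between the lines in the knockout, while FLI1, TREML1, SELP, GP1BA, PF4 and HOXA10 lie at the bottom of the axis in all 5 K562 libraries, where no count was found.

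Among progenitor surface and cytokine receptor genes 6 of 10 tested members rose and 2 fell, where 27.3% and 25.2% of all genes tested did. Of 9 separating members, all higher in HEL, 6 moved toward HEL and 1 away, where 33.2% of all genes higher in HEL rose and 15.1% fell. KIT, the stem cell factor receptor (chromosome 4, 54657928 to 54740715, plus strand), was read at 15.3 and 16.2 CPM in the controls, at 47.7, 50.9 and 46.3 CPM in the knockout and at 474.0 and 485.2 CPM in HEL. The groups did not overlap (log2 difference 1.62, SE 0.07, edgeR, adjusted p = 7.2e-13). CD44, a hyaluronan receptor, rose by 2.21 log2 and CSF2RB, the common beta chain of the GM-CSF, IL-3 and IL-5 receptors, by 4.97, from 2 fragments in 1 control and none in the other. IL6ST, the shared signalling chain of the IL-6 receptor family, reached HEL, with 88.8, 111.3 and 107.0 CPM in the knockout and 98.6 and 99.0 CPM in HEL (adjusted p = 0.55). IL4R fell by 1.07 log2 and was higher in HEL.

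The HOX group held 18 tested genes, of which 9 rose and 3 fell, where 27.3% and 25.2% of all genes tested did. Of 13 separating members 7 moved toward HEL and 1 away, where 32.1% and 19.9% of all separating genes did. MEIS1, a partner of HOX proteins, rose from 3.32 and 3.17 to 14.4, 12.03 and 11.4 CPM against 44.0 and 44.8 CPM in HEL (log2 difference 1.95, SE 0.14, edgeR, adjusted p = 6.6e-10). HOXA5 was read at 5 fragments in each knockout library after none in the controls. HOXA10, HOXA11 and HOXA13 had 0 counts in all K562 libraries. HOXB2 fell toward its lower HEL level, by 0.38 log2.

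In the JAK-STAT list 11 of 27 members fell and 6 rose, where 25.2% and 27.3% of all genes tested did. The median knockout difference of the list was -0.11 log2. Of 15 separating members 6 moved toward HEL and 3 away, where 32.1% and 19.9% of all separating genes did, and the share of members that rose was near the 27.3% of all genes tested. JAK2, the kinase mutated in HEL, was read at 967.0 and 971.1 CPM in HEL, at 62.4 and 66.6 CPM in the controls and at 60.02, 65.8 and 63.1 CPM in the knockout, and was not called (adjusted p = 0.67). PIM2, a kinase target of STAT5, rose by 1.01 log2 and SH2B3, the JAK2 adaptor LNK, fell by 0.93, both toward HEL. SOCS3, a feedback inhibitor of the pathway, fell by 0.52 log2 and was higher in HEL. STAT4 was read at 12, 44 and 26 fragments in the knockout and at none in the controls, at least 7.70-fold higher against the floor.

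Markers of other blood lineages also differed. In the myeloid list 7 of 14 tested members rose and 3 fell, where 27.3% and 25.2% of all genes tested did. Of 10 separating members 5 moved toward HEL and 1 away, where 32.1% and 19.9% of all separating genes did. PRG2, the eosinophil major basic protein, was read at 9.09 and 9.42 CPM in the controls, at 114.2, 105.8 and 98.0 CPM in the knockout and at 145.0 and 149.1 CPM in HEL. The knockout lay short of HEL by 0.47 log2 after a rise of 3.52 (SE 0.08, edgeR, adjusted p = 3.1e-16). LYZ, lysozyme, did not separate the lines and rose by 3.18 log2, to a level above HEL by 2.63. CD68 fell by 1.50 log2 and was higher in HEL. In the lymphoid list, 2 members rose and 3 fell among 11 tested and separating members, all 5 toward HEL, where 32.1% of all separating genes moved toward it. CD3D, a chain of the T cell receptor complex, was read at 52.4 and 50.4 CPM in control K562 and at 19.8, 16.5 and 15.2 CPM in the knockout, with 0 counts in HEL. The leukocyte antigen gene PTPRC rose by 1.50 log2 toward HEL.

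The MHC class I list was mixed. Of 18 tested members 7 rose and 3 fell, where 27.3% and 25.2% of all genes tested did. Of 14 separating members 5 moved toward HEL and 1 away, a toward share near the 32.1% of all separating genes. NLRC5, the transactivator of these genes, was read at 0.0462 and 0.140 CPM in the controls, at 1.39, 1.36 and 1.77 CPM in the knockout and at 146.4 and 137.8 CPM in HEL. IRF1 rose by 1.35 log2. HLA-C fell by 1.95 log2 from a low level and was high in HEL. Exons of 384 tested genes are listed on more than 1 contig, and reads of HLA-C, PSMB8, TAP1, TAP2, TAPBP and PTPRC among them can be lost or divided, so their values are uncertain. Such genes were called separating in 88.3% of cases, against 56.2% of the others, and without them 61.6% of the genes that moved did so toward HEL.

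**Figure D5:**
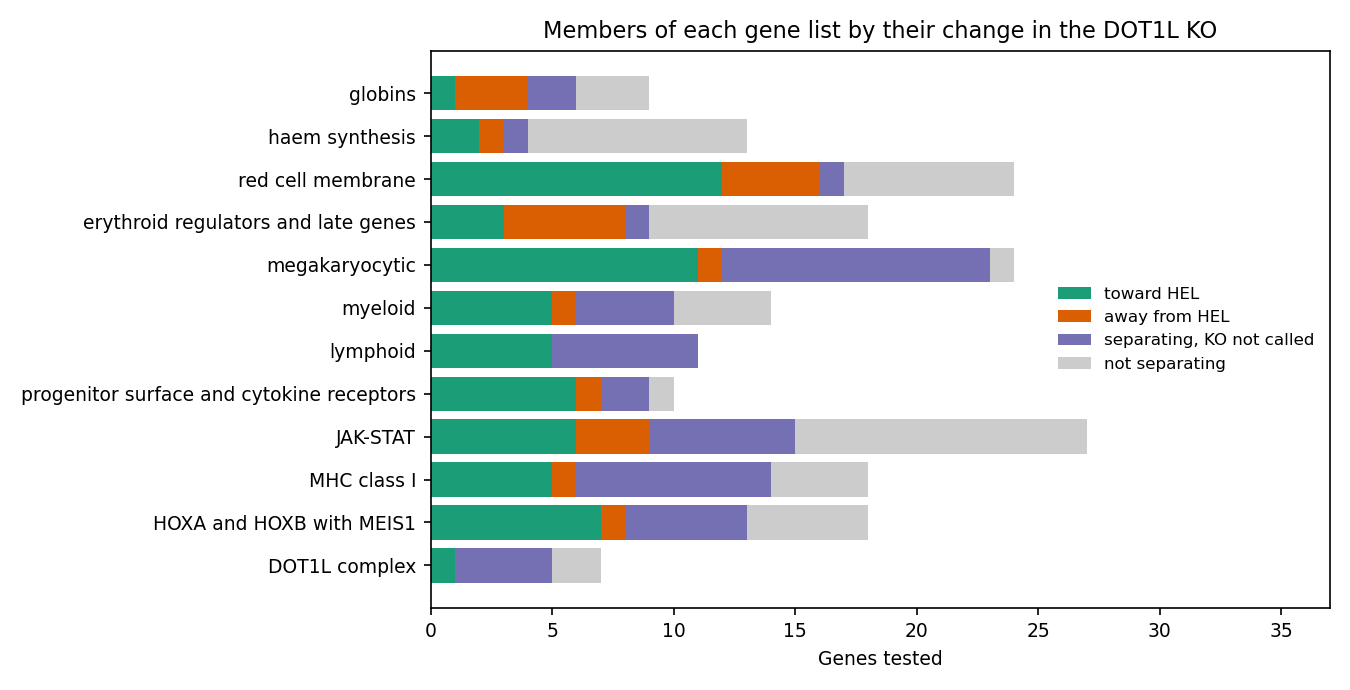
Number of tested members in each of the 12 gene lists, on the horizontal axis, split into members that moved toward HEL, moved away from HEL, separated the lines without a call in the knockout, or did not separate the lines. Red cell membrane (12 toward, 4 away) and megakaryocytic genes (11 toward, 1 away) hold the most toward members, and globins hold 1 toward and 3 away.

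Beyond the lists, the genes of the 4 classes with the largest knockout differences were examined. Among genes higher in HEL that rose, KIRREL1, a cell adhesion protein, had no counts in the controls, 1.30, 1.23 and 1.35 CPM in the knockout and 26.96 and 27.4 CPM in HEL. NXF3, an RNA export factor, likewise had none in the controls, with 0.987, 1.26 and 1.45 CPM in the knockout and 117.3 and 115.3 CPM in HEL. The knockout was at least 9.30-fold and 8.85-fold higher than control for these genes, against the floor, and remained far below HEL. TAGAP, a GTPase activating protein of T cells, was read at 3.81, 4.02 and 3.97 CPM in the knockout, with 1 fragment in 1 control and none in the other, and at 14.5 and 16.8 CPM in HEL.

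Among genes lower in HEL that fell, COL1A2, a chain of type I collagen (chromosome 7, 94394561 to 94431232, plus strand), went from 68.9 and 64.7 CPM to 1.84, 1.76 and 1.91 CPM, with 0 counts in HEL. The knockout libraries lay far below both controls (log2 difference -5.18, SE 0.11, edgeR, adjusted p = 2.2e-16). ZNF618, a zinc finger gene, fell from 19.3 and 20.1 CPM to between 0.133 and 0.449 CPM, where it was not called against HEL (adjusted p = 0.33). PRKCH, a protein kinase C isoform, fell by 4.68 log2 and ended below HEL by 1.88. KRT19, a keratin at 217.7 and 208.8 CPM in the controls and at 0 counts in HEL, was not called in the knockout (log2 difference 0.10, adjusted p = 0.16). With library-size scaling its difference was 0.15 and was called (edgeR, adjusted p = 0.031).

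Genes lower in HEL that rose were silent or nearly so in HEL. DPYSL5, a protein of growing axons (chromosome 2, 26848101 to 26950351, plus strand), was read at 0.877 and 1.63 CPM in the controls, at 62.3, 65.0 and 65.5 CPM in the knockout and at 1 read in 1 HEL library. It rose by 5.67 log2 (SE 0.15, edgeR, adjusted p = 7.1e-16). UNC5C, a netrin receptor, rose from 0.231 and 0.326 to 16.6, 16.8 and 17.2 CPM, with 0 counts in HEL. The difference of UNC5C between the lines rested on 5 and 7 control fragments, at least 1.12-fold over HEL against the floor of 3 counts. TIMP4, an inhibitor of metalloproteinases, rose by 6.52 log2, but its difference between the lines rested on few counts and was lost without HEL control 1, HEL control 2 or K562 control 2 (adjusted p = 0.12, 0.12 and 1). Among genes higher in HEL that fell, TFCP2L1, a transcription factor, went from 4.15 and 4.34 CPM to between 0.133 and 0.269 CPM, against 56.2 and 47.3 CPM in HEL. ZNF680 fell by 4.76 log2, from a level 1.57 below HEL to one 6.33 below.

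Genes that were nearly silent in the controls and reached HEL included MGLL, the monoacylglycerol lipase (chromosome 3, 127689062 to 127823250, minus strand). It was read at 0.0923 and 0.187 CPM in the controls, at 12.5, 13.4 and 12.5 CPM in the knockout and at 13.4 and 14.0 CPM in HEL. Knockout and HEL were not called different (log2 difference 0.09, adjusted p = 0.44), after a rise of 6.46 (SE 0.24, edgeR, adjusted p = 1.0e-13). ZNF827, CCNJL and GIMAP6 showed the same course, at 1 to 5 fragments in each control and within 0.32 log2 of HEL in the knockout. CHST3, a sulphotransferase of chondroitin, went past HEL, with 15.2, 16.1 and 16.2 CPM in the knockout and 2.92 and 3.14 CPM in HEL. At the other end FCER1A, the alpha chain of the IgE receptor of mast cells and basophils (chromosome 1, 159289714 to 159308224, plus strand), had 0 counts in all 5 K562 libraries and 738.8 and 760.7 CPM in HEL.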

How the data were processed

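Messenger RNA of HEL and K562 was measured from polyadenylated RNA in dUTP strand-specific libraries, per the labels' protocols. The authors deposited whole-number counts per gene, reads for HEL and fragments for K562, per the file headers. The submitters' processing notes name fastp 0.13.1, HISAT2 2.1.0 and featureCounts 1.6.1 among tools for all assays, with builds hg38 and hg19. Gene positions in the tables are on hg38. Strand use in counting is not given in the sources used here, so overlapping and antisense genes can share counts. Samples were grouped by the labels and the tables joined by gene symbol. Of 13 RNA-seq columns, K562 control 3 equalled control 2 in every gene and was counted once.

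The 7 libraries entered 1 fit in edgeR 4.0.16 (R 4.3.3): filterByExpr (minimum count 10, minimum total 15), TMM factors, glmQLFit and glmQLFTest, with Benjamini-Hochberg adjustment over the 15264 genes tested. Separating genes had an adjusted p under 0.05 and a log2 difference of at least 1. Toward and away genes had a knockout adjusted p under 0.05 with the sign of HEL minus control or the opposite sign. Log2 CPM for distances used a prior count of 2. The SE was derived from the F statistic, and the code was tested on simulated data. DESeq2 1.42.0, other scalings, filters, thresholds, controls and left-out libraries were alternatives.

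The 12 lists were globins, haem synthesis, red cell membrane, erythroid regulators and late genes, megakaryocytic, myeloid, lymphoid, progenitor surface and cytokine receptors, JAK-STAT, MHC class I, HOXA and HOXB with MEIS1, and the DOT1L complex. In the DOT1L complex 1 of 7 members, DOT1L, fell and none rose, where 25.2% of all genes tested fell and 27.3% rose. Besides list members with the largest changes, the genes named were the 5 with the largest knockout change in each of 4 classes, the 5 that reached HEL from the largest gap, 4 past HEL and 5 not called, with a minimum of 5 CPM (50 CPM for the last), leaving out Y-linked, noncoding and antisense genes. From these a subset is described, and some named genes are not reported here. AQP1, PPOX, LYZ, CD36, GATA1, KLF1, EPB42, DMTN, ICAM4, RHD, ITGA2B, ITGB3, RUNX1, CD9, IL6ST, MEIS1, HOXB2, SELP, GP1BA, PF4, TREML1, HOXA13, MLLT1 and PTPRC are list members outside that rule and were chosen after their values were seen. The members and lists were chosen with earlier results of these data known. Promoters were matched by symbol to RefSeq for 61 of 101 named genes.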

Additional observations from a re-analysis of the deposited data

How the results depend on the processing

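The share of moved genes that moved toward HEL was 58.4% to 68.1% over 20 alternative settings, and 50.1% and 41.2% (2771 and 2809 away) under the selections added after seeing the data. With no minimum difference between the lines, 6249 genes were higher in HEL, 2840 moved away, 1287 higher in HEL fell, 688 toward genes were not called against HEL and 277 were past it, and lists held 32 away members (megakaryocytic 2). With a minimum of 2, 5303 genes separated the lines (2406 higher and 2897 lower in HEL) and 5340 separated HEL from the knockout, 1813 moved toward (1618 partway, 148 not called, 47 past HEL) and 965 away, 889 lower in HEL fell and 218 higher in HEL fell, with 12 away list members and 7 toward members of the red cell membrane list. With a knockout difference of at least 1, 1189 moved toward (845 rose, 344 fell, 872 partway) and 556 away (419 rose, 137 fell), with 9 away list members and 0 of the megakaryocytic list, which had 3 after removal of the trend with exonic length. Over left-out libraries the median gap covered was 2.61% to 4.74%, megakaryocytic away members numbered 1 to 2, toward genes 2332 to 2883 and away genes 1342 to 1715.

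The distance difference changed sign with library-size scaling (0.00754, exact permutation p = 0.6), upper-quartile scaling (0.00316, p = 0.9) and no filter (0.0292, p = 0.2), and ran from -0.0116 to 0.0131 over left-out libraries. The cause was not tested.

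Deviations from the group means correlated at 0.126 and 0.101 between K562 control and knockout libraries of the same number, which are only 2 pairs, and at -0.0165 to 0.00145 between the lines, so the numbers were not taken as pairs. With the replicate block 2815 genes moved toward and 1756 away (61.6%), and ADD2, BCL11A and KRT19 became called in the knockout (adjusted p = 0.045, 0.048 and 0.037). ADD2 and KRT19 were also called with library-size scaling (edgeR, adjusted p = 0.025 and 0.031). ADD2 was called with upper-quartile scaling too (0.049), and BCL11A without knockout 1 (0.0099). The block gave differences near 0 for genes without K562 counts: FCER1A -0.0032, FLI1 0.0014, HOXA10 0.0027 and HOXA11 -0.0077. CD2, with 1 fragment in each of 3 K562 libraries, had -0.19 with the block and 0.18 without it.

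Some differences that were not called in the knockout also changed sign. CPOX had 0.0331 with library-size and 0.0152 with upper-quartile scaling and 0.136 with control 2 for the knockout, and -0.159 to 0.125 over left-out libraries. JAK2 had 0.0173 with library-size scaling and 0.0139 with control 1 for the knockout, and -0.0908 to 0.0108. CD2 had -0.666 with control 2 for the knockout, and -0.675 to 2.41. THY1 had 2.42 with control 2 for the knockout, and -1.57 to 2.41. MLLT6 had -0.0581 with control 1 for the knockout, and -0.0611 to 0.335. HEL minus control of TIMP4 was 0 with control 1 alone, and -6.38 to 0 over left-out libraries.

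Over all settings, 19 calls of named genes were lost with the direction kept and 13 gained, and the difference of TIMP4 between the lines was lost at a value of 0 in 2 more. In the knockout, JAK1, PSMB8 and ZNF71 were no longer called without control 2 (adjusted p = 0.056, 0.060 and 0.18) and HOXB8 without control 1 (0.051), while CD34 and HLA-B became called without knockout 2. Depth limits genes at 0 counts to the floor of 3 counts.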

Other observations

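Some neighbouring genes were at 0 counts in 1 line and not in the other. On chromosome 22, 6 separating genes from 16601911 to 17558155 (TPTEP1, XKR3, CECR7, IL17RA, HDHD5 and CECR2) had 0 counts in both HEL libraries and 10.3 to 218.1 CPM in control K562. The knockout was called for 5 of the 6, each with a fall, where 31.1% of all genes lower in HEL fell and 24.0% rose. HDHD5 fell by 0.95 log2 (edgeR, adjusted p = 1.1e-07) and IL17RA, the receptor of interleukin 17A, by 0.66. XKR3 was not called (adjusted p = 0.098).

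On chromosome 7, 4 genes from 22419444 to 22732002 (STEAP1B, LOC100506178, LOC401312 and IL6) had 0 counts in HEL and 1.35 to 12.5 CPM in control K562. IL6, the cytokine interleukin 6, rose by 1.26 log2 in the knockout (edgeR, adjusted p = 0.00014). LOC100506178 rose by 0.47 log2 (edgeR, adjusted p = 0.019), LOC401312 had a difference of -0.71 log2 (adjusted p = 0.023) and STEAP1B was not called. In the opposite sense, 6 genes of the HOXA cluster from 27141052 to 27207259 (HOXA5, HOXA10, HOXA11, HOXA11-AS, HOXA13 and HOTTIP) had 0 counts in control K562 and 2.99 to 31.0 CPM in HEL. Of these 4 also had 0 counts in every knockout library, and HOXA5 was the only 1 called. Its call rested on 5 fragments in each knockout library, at least 1.49-fold over control against the floor. The run was chosen by its 0 counts in control K562, so no fall could be called in it. The 33.2% of all genes higher in HEL that rose is therefore not a matching share. These runs were found after the values were seen.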
